A study of Cichorium intybus with 5 samples.

Results

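The response of the non-embryogenic chicory genotype C15 to β-glucosyl Yariv reagent (β-Glc Y) was read from one microarray comparison, leaf explants cultured for 4 days with the reagent (Y+) against leaf explants cultured for 4 days without it (Y-). All probes with a deposited value in this comparison were taken, which gave 1260 of the 2112 clones on the cDNA array. The study describes fewer unique genes than clones, so counts of probes are not counts of genes. The value of a probe is the log2 of the ratio of the Y+ to the Y- signal, so that 1 stands for a 2-fold higher and -1 for a 2-fold lower signal in the treated explants. Clones were named from the annotation of the study, which gave names to 135 genes, of which 134 had a value in C15.

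C15 and the embryogenic genotype K59 are chicory (Cichorium intybus) genotypes of the Koospol landrace. C15 descends from K59 by selfing, and K59, unlike C15, forms somatic embryos from leaf tissue. Explants of both genotypes came from in vitro plantlets 2 months old, with 12 plants per replica, and were cultured in 20 mL of medium that induces somatic embryogenesis, at 35 °C in the dark on an orbital shaker. The Y+ explants had 250 µM β-Glc Y in this medium, the Y- explants had none, and no inactive Yariv analogue was used on the arrays. The same comparison was made in K59, and in each genotype Y- explants at day 4 were also compared with explants at day 0. No RNA is shared by the C15 and the K59 reagent comparisons, whereas the Y- explants of C15 at day 4 enter both C15 comparisons.

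Arabinogalactan proteins (AGPs) are heavily glycosylated proteins of the plant cell surface and wall, many of them held at the plasma membrane by a lipid anchor. β-Glc Y is a synthetic dye that binds AGPs without a covalent bond and precipitates them in the wall, and it is used to disturb their function in growing and differentiating cells. Somatic embryogenesis is the formation of embryos from cells of the plant body, and AGPs are among the secreted proteins long associated with it.

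Each probe had 1 deposited value per comparison, a summary of 3 biological replicates and 6 hybridizations, and the separate hybridizations were not analysed here. No standard error or test is therefore given for any gene, and a log2 ratio at or beyond -1 or 1, the filter of the study's methods, is only a size. The direction was taken from the labels, which put the Y+ RNA in the Cy5 and the Y- RNA in the Cy3 channel, and from the order of the comparison in the series description. Ratios hold no level, so the tissue could not be checked against marker genes.

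Most probes hardly differed between Y+ and Y- explants of C15. The median log2 ratio was 0, the quartiles were -0.14 and 0.13, and 1128 of the 1260 probes (89.5%) lay within 0.5 of zero. At or above 1 lay 13 probes, or 1.03%, and at or below -1 lay 48 probes, or 3.81%, which together made 61 probes or 4.84%. The extremes were -1.89 for the proteasome subunit gene RPT6 and 1.56 for the extracellular dermal glycoprotein gene EDGP, a 3.71-fold lower and a 2.95-fold higher signal with the reagent.

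**Figure D1:**
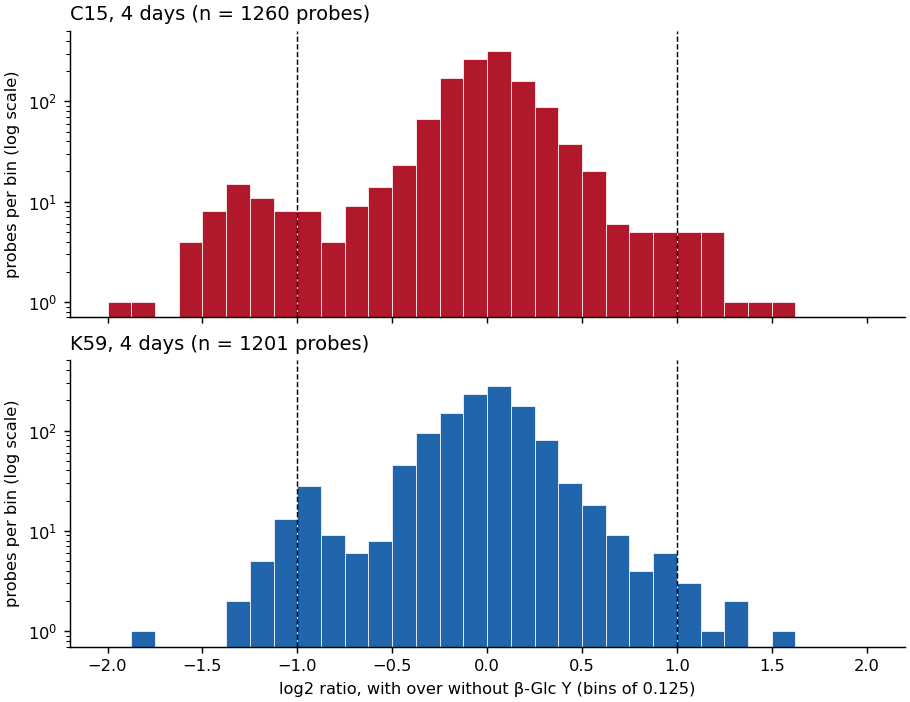
Number of probes (log scale) by log2 ratio of explants with over without β-Glc Y, in C15 (top, 1260 probes) and K59 (bottom, 1201 probes), with dashed lines at -1 and 1. In C15 a separate group of probes lies below -1, with 23 probes from -1.5 to -1.25, whereas the like group of K59 lies nearer to -1, with 37 probes from -1 to -0.75.

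The lower probes formed a group of their own rather than the tail of the main distribution. Between -0.75 and -0.5 lay 23 probes and between -1 and -0.75 only 12, but 19 lay between -1.25 and -1 and 23 between -1.5 and -1.25. In K59 the bins from -1.5 to -1.25, from -1.25 to -1 and from -1 to -0.75 held 2, 18 and 37 probes. The upper side had no such second group, with 26 probes between 0.5 and 0.75, 10 between 0.75 and 1 and 13 from 1 upwards.

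The probes nearest to the limits show how narrowly some of them fell on one side. On the lower side, the unnamed clones E003F5 at -1.01 and E016D3 at -1.02 were just beyond the limit, and the unnamed clone N102B10 at -0.98 and the metallothionein gene MT1 at -0.97 were just short of it. Metallothioneins are small cysteine-rich proteins that bind metal ions. On the upper side, the unnamed clone E004A6 at 1.03 and the proteasome subunit gene PAB1 at 1.06 were just beyond 1, and the unnamed clone E016A6 and the polygalacturonase inhibiting protein gene PGIP, both at 0.96, were just short of it.

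Of the 61 probes beyond the limits, 21 carried a gene name, 14 of the lower and 7 of the higher ones, and the other 34 lower and 6 higher probes were unnamed clones. Among named genes 15.7% lay beyond the limits and among the 1126 unnamed probes 3.55% did. The study chose its named genes on these samples, partly by their response to the reagent, so the difference between those shares is no independent result. It used a false discovery rate as well as this size. Among the lower named genes, amino acid permease 6, ATP citrate lyase and HyPRP are not among those it described as affected by the reagent. The same holds for the nuclear receptor, mucin-like, RNA helicase and extensin-related genes.

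**Figure D2:**
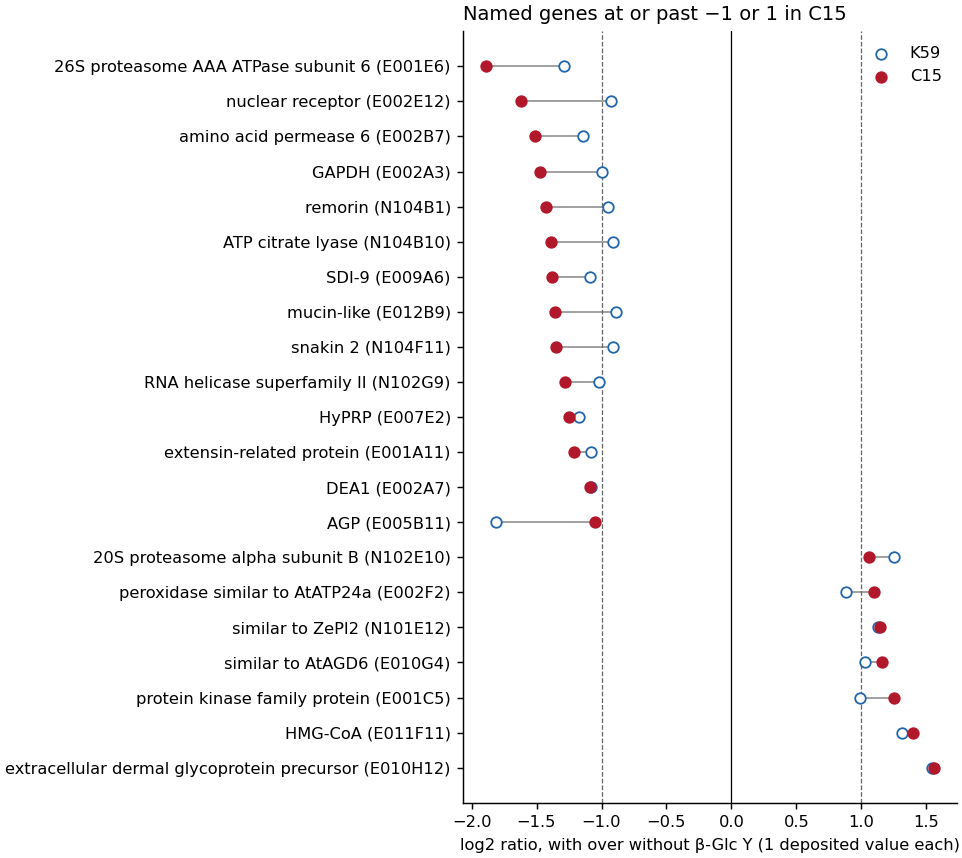
Log2 ratio of explants with over without β-Glc Y for the 21 named genes at or beyond -1 or 1 in C15 (filled), with the K59 value of the same clone (open), 1 deposited value each. RPT6 is the lowest gene in C15 at -1.89 and the AGP gene the lowest in K59 at -1.81, and most of the other lower genes lie farther from zero in C15 than in K59.

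Among the genes of the cell wall and the cell surface, 4 of 10 measured members were at or below -1, 1 was above 1, and the median was -0.18, beside a median of 0 over all probes. Over all probes 3.81% were at or below -1 and 1.03% at or above 1. Of the 134 named genes, from which this and the following groups were drawn, 14 were lower and 7 higher. The counts of every group are to be read beside these shares. The AGP gene (clone E005B11), which encodes the protein core of an arabinogalactan protein and thus of the kind of molecule that the reagent binds, was at -1.05 in C15, a 2.07-fold lower signal. The same clone was at -1.81 in K59. It was 1 of only 2 among the 48 lower probes with a value closer to zero in C15 than in K59, the other being the unnamed clone E016D3 at -1.02 in C15 and -1.21 in K59.

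Further lower genes of this group were the mucin-like gene (E012B9) at -1.36, HyPRP (E007E2) at -1.25 and the extensin-related gene (E001A11) at -1.21. Extensin-related is the annotation of the study for E001A11, whose best Arabidopsis match is given as AT2G05510, and it was not checked. Extensins are hydroxyproline-rich proteins that are cross-linked into the wall, and hybrid proline-rich proteins join a proline-rich stretch to a cysteine-rich domain of the lipid transfer type. In K59 the mucin-like gene was at -0.89, HyPRP at -1.17 and the extensin-related gene at -1.08. The mucin-like gene thus differed by -0.47 between the genotypes, and HyPRP and the extensin-related gene by -0.08 and -0.13.

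The secreted proteins EDGP and PGIP had higher signals with the reagent. EDGP (E010H12), known from carrot as a secreted glycoprotein related to aspartic proteases, was at 1.56 in C15 and 1.54 in K59 and was the highest probe of both comparisons. PGIP (E012E7), a leucine-rich repeat protein of the wall that inhibits fungal polygalacturonases, was at 0.96 in C15 and 0.87 in K59. The clone annotated as a protein kinase (E001C5) was at 1.25 in C15 and 0.99 in K59, and the best Arabidopsis match given for it, AT1G03230, is the neighbouring locus number to that given for EDGP, AT1G03220.

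The remaining members of the group stayed between -1 and 1. They were the glycine-rich protein genes E015F12 at 0.50 and E017F4 at -0.18, a mucin-related gene (E011H10) at -0.18 and the entry named H-rich protein (E011A6) at -0.17. The enzymes and loosening proteins of the wall also stayed close to zero. Of 6 measured members none was beyond the limits, and they ran from the polygalacturonase (E012H2), which cuts pectin, at -0.24 to the heparanase-like gene (E011F4) at 0.24, with a median of -0.07. Heparanase-like is the annotation of the study for E011F4, whose best Arabidopsis match is given as AT5G16270, and it was not checked. The expansins, which loosen the wall during growth, were at -0.02 (E017D6) and -0.15 (E011A7), the pectinesterase (E007B4) at 0.18 and the endoxyloglucan transferase (E004D1), which joins xyloglucan chains, at -0.11.

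All 3 members of the lipid transfer and proline-rich group were below -1, with a median of -1.25. SDI-9 (E009A6), named after a sunflower gene and matched to an Arabidopsis lipid transfer protein, was at -1.38, DEA1 (E002A7), named after a tomato gene of the same cysteine-rich kind, at -1.09, and the third is HyPRP, already described. In K59 SDI-9 was at -1.09 and DEA1 at -1.08, so that the genotypes differed by -0.29 for SDI-9 and by -0.01 for DEA1. Lipid transfer proteins are small secreted proteins that bind lipids and take part in cuticle formation and defence. The study described SDI-9, DEA1 and the AGP gene as affected by the reagent, and listed HyPRP as expressed specifically in K59 or C15. All were thus chosen on these same samples, and their common direction is a description.

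Defence peptides and protease inhibitors went to both sides, with 1 of 7 below -1, 1 above 1 and a median of -0.18. Snakin 2 (N104F11), a small cysteine-rich antimicrobial peptide of the gibberellin-regulated family, was at -1.35 in C15 and -0.91 in K59. PI2 (N101E12), a serine protease inhibitor, was at 1.14 in C15 and 1.13 in K59. The clone annotated as a serine-type endopeptidase inhibitor (E017B9) was on the opposite side at -0.60 in C15, with -1.09 in K59. The best Arabidopsis match given for it is AT4G11820, and its annotation was not checked. A wound-responsive gene (E017H3) was at -0.58. The defensin SD2 (N102D12) at -0.18, the clone annotated as VSP (N101E4) at 0.14 and cyclophilin (E016D9) at 0.09 stayed near zero. The annotation of N101E4, whose best Arabidopsis match is given as AT1G24020, was not checked either.

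In the redox and metal-binding group only the peroxidase gene named after Arabidopsis ATP24a (E002F2) was beyond the limits, at 1.10, and the median over 10 genes was -0.11. Class III peroxidases are secreted enzymes that use hydrogen peroxide to oxidise phenolic substrates in the wall. The other peroxidase (E013D3) was at -0.21 and the ascorbate peroxidase (E006G11) at -0.06. MT1 (N104E6) was the lowest of the group at -0.97, the same value as in K59. The sign given for MT1 is that of the deposited ratio, which is opposite to the direction in the text of the study. The quinone reductase E017C3, an enzyme of electron transfer to quinones, was at -0.93 beside -0.77 in K59, whereas the second quinone reductase clone E006H4 was at -0.10.

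The subunits of the proteasome, the complex that degrades ubiquitin-tagged proteins, differed widely from each other. RPT6 (E001E6), an ATPase of the regulatory particle that feeds proteins into the core, was at -1.89, the lowest of all 1260 probes. RPT5a (E017E4), another ATPase of the same ring, was at -0.05. PAB1 (N102E10), an α subunit of the 20S core, was at 1.06. The order was the same in K59, with RPT6 at -1.29, RPT5a at -0.20 and PAB1 at 1.25, and PAB1 was the only one of the 13 higher probes with a larger value in K59.

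None of the 10 ubiquitin and ubiquitin ligase genes was beyond the limits, with a median of -0.14. The lowest was UBC9 (E015H1), a ubiquitin-conjugating enzyme, at -0.84, and the highest a RING zinc finger gene (E012B12) at 0.29. In K59 UBC9 was at -1.10, beyond the limit, so that for this gene the K59 ratio was the larger. The polyubiquitin clones were at -0.52 (N102D1) and -0.23 (E017D10).

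Among 16 membrane, transport and signalling genes 2 were below -1 and 1 above 1, with a median of -0.06. The 1 above 1 was the clone annotated as a protein kinase (E001C5), whose Arabidopsis match neighbours that of EDGP, so its place in this group is uncertain. Amino acid permease 6 (E002B7), a proton-coupled importer of amino acids, was at -1.51 in C15 and -1.14 in K59, and remorin (N104B1), a protein of plasma membrane microdomains, was at -1.43 and -0.95. A voltage-dependent anion channel (E010D10), the pore of the outer mitochondrial membrane, fell just short at -0.92, with -0.75 in K59. The highest member after the protein kinase entry was calmodulin (E004F10), the calcium sensor, at 0.62 in C15 and 0.10 in K59. The aquaporin-family (MIP) clones E001G4 and E014D12 were at -0.36 and -0.19.

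The 5 genes of vesicle traffic had the highest median of all groups, 0.21, with 1 above 1 and none below -1. AGD6 (E010G4), which activates the GTPase of ADP-ribosylation factors, was at 1.16, β-COP (E009D1), a subunit of the vesicle coat between Golgi and endoplasmic reticulum, at 0.58 and the factor ARF1 itself (E011E1) at 0.21. In K59 these genes were at 1.03, 0.17 and 0.20. The lowest member, an endoplasmic reticulum protein (A025A9), was at -0.24.

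In the nucleus-related group 2 of 12 genes were below -1 and none above 1, with a median of -0.06. The gene annotated as nuclear receptor (E002E12) was at -1.62, beside -0.93 in K59, and the RNA helicase of superfamily II (N102G9) at -1.28, beside -1.02, whereas the DEAH-box RNA helicase (E006F5) was at -0.02. The RNA binding protein A gene (E010F6) was at -0.64 in C15 and -0.66 in K59. The highest member was LBD41 (E012F12), a transcription factor of the lateral organ boundaries domain family, at 0.89, short of the limit in C15 and beyond it in K59 at 1.02.

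Of 8 genes of glycolysis and energy metabolism 2 were below -1 and none above 1, with a median of -0.09. GAPDH (E002A3), a glycolytic dehydrogenase whose best Arabidopsis match here is AT1G79530, was at -1.47 in C15 and -1.0 in K59. The clone named cytosolic GAPDH (E005C9) was at -0.13 and -0.07. ATP citrate lyase (N104B10), which makes acetyl-CoA from citrate in the cytosol, was at -1.39 and -0.91. The highest member, named NADH-cytochrome b5 reductase (E006G1), was at 0.16.

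HMG-CoA reductase (E011F11), the enzyme that commits HMG-CoA to the mevalonate pathway of sterols and other isoprenoids, was at 1.40 in C15 and 1.31 in K59, the only gene beyond the limits of 7 in its group of isoprenoid, inositol, phenylpropanoid and ethylene synthesis. The median of that group was 0.10, and its lowest members were ACC oxidase (N104E3), the last enzyme of ethylene synthesis, at -0.34 and dihydroflavonol reductase (E001H2), an enzyme of anthocyanin synthesis, at -0.33. PAL (E003G7), which opens the phenylpropanoid pathway, was at 0.10.

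The groups of growth and housekeeping functions held no gene beyond the limits, and the 6 named genes outside all groups were between -0.18 and 0.55. These were the ribosome and translation group with 14 measured genes, cell cycle and cytoskeleton with 7, chaperones with 6 and photosynthesis with 6, with medians of 0.01, 0.02, -0.02 and 0.12. Their members ran from the translation initiation factor gene B04 (E014G12) at -0.84 to the ribosomal protein gene L10 (E001G12) and the Calvin cycle regulator CP12 (E003D4), both at 0.48. In the cell cycle group the lowest gene was the salt tolerance protein 5 entry (E016C9) at -0.49 and the highest kinesin 10 (E016B4) at 0.13. Chaperones lay between -0.21 for a chaperonin (E017B4) and 0.19 for heat shock cognate 70 (E016H11), and the lowest photosynthesis gene was a clone of the RuBisCO small subunit (N104E4) at -0.20.

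**Figure D3:**
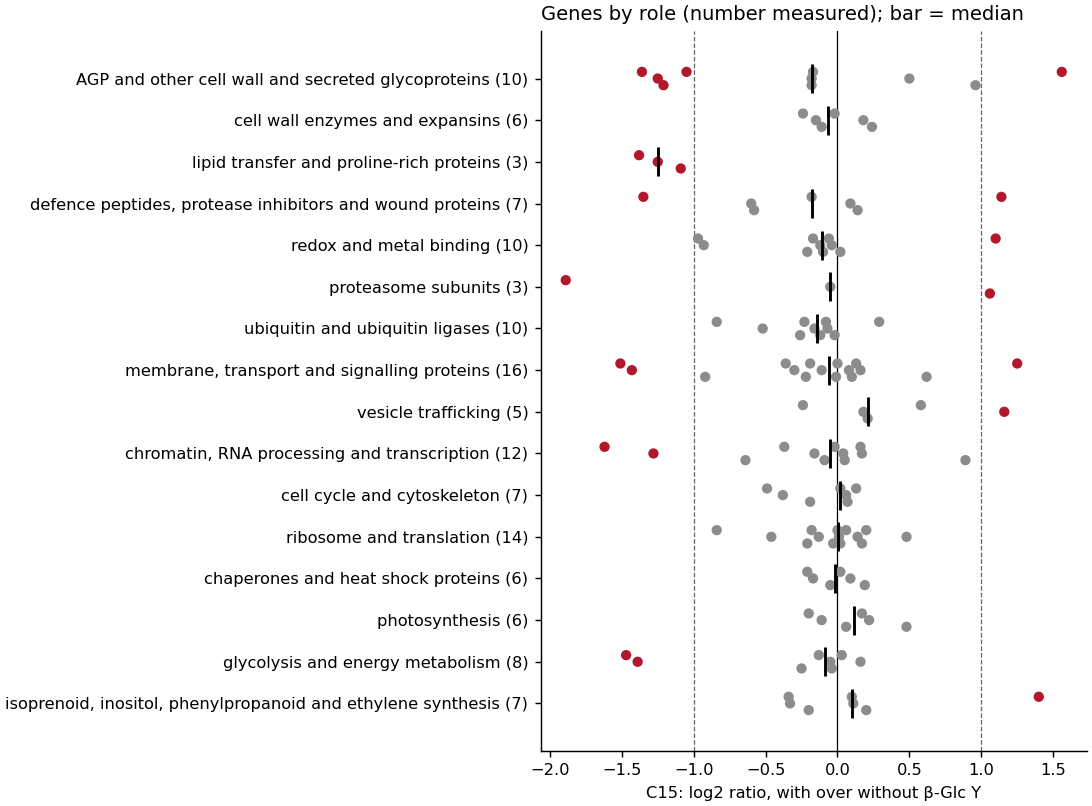
Log2 ratio of explants with over without β-Glc Y in C15 for the genes of 16 groups by role, with the number measured in parentheses, points in red at or beyond -1 or 1 and a bar at the median. Only the lipid transfer and proline-rich group lies wholly below -1, and 6 of the 16 groups hold no gene beyond the limits.

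Clones that share a name or an Arabidopsis match gave the only look at how far clones of like annotation differ in this comparison. The RuBisCO small subunit clones E007F11 and N104E4 were at -0.11 and -0.20, the RING finger clones E014H11 and E017B3 at -0.26 and -0.12, and the HSP70 clones E012D5 and E016H11 at -0.05 and 0.19. The malate dehydrogenase clones E006E2 and N101C1 were at 0.03 and -0.25. The NADH-cytochrome b5 reductase clone E006G1, with the same Arabidopsis match as the malate dehydrogenases, was at 0.16. Without E006G1 each of these pairs was within 0.29, and with it the clones of that Arabidopsis match spanned 0.41. The RING finger clones share only a name and have different Arabidopsis matches. Other pairs that share only a name differed by 0.17 for the MIP family and 0.29 for polyubiquitin. The glycine-rich proteins, by 0.68, and the quinone reductases, by 0.83, were farther apart, and they too have different Arabidopsis matches. Whether any of these pairs comes from 1 gene was not tested.

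The comparison with K59 was open for 1044 probes, and all 61 probes beyond the limits in C15 had a K59 value. None of them had the opposite sign in K59. Beyond the limits in the same direction in K59 lay 24, so that 37 were beyond them in C15 alone, 30 lower and 7 higher. In K59 as a whole 0.583% of 1201 probes were at or above 1 and 2.0% at or below -1.

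Most of these 37 probes were near the limit in K59 as well. Of the 48 lower probes of C15, 47 were at or below -0.75 in K59, with a median of -1.28 in C15 and -0.93 in K59, and 46 had the lower value in C15. The median C15 minus K59 difference was -0.38 over the lower probes and -0.01 over all 1044. Of the 13 higher probes, 12 had the higher value in C15, with medians of 1.14 and 0.99 and a median difference of 0.22. Because these probes were picked by their C15 values, part of such a gap follows from the choice.

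Picking by K59 instead gave a smaller gap of the same sign among the lower probes. The 24 probes at or below -1 in K59 had a median of -1.09 there and -1.23 in C15, and the C15 value was the lower one for 16. The 7 probes at or above 1 in K59 had medians of 1.13 there and 1.14 in C15. Of these 31 probes, 7 were short of the limits in C15, among them UBC9, the serine-type endopeptidase inhibitor and LBD41, and the unnamed clones E014E10, E001D1, E014D8 and N101A6.

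**Figure D4:**
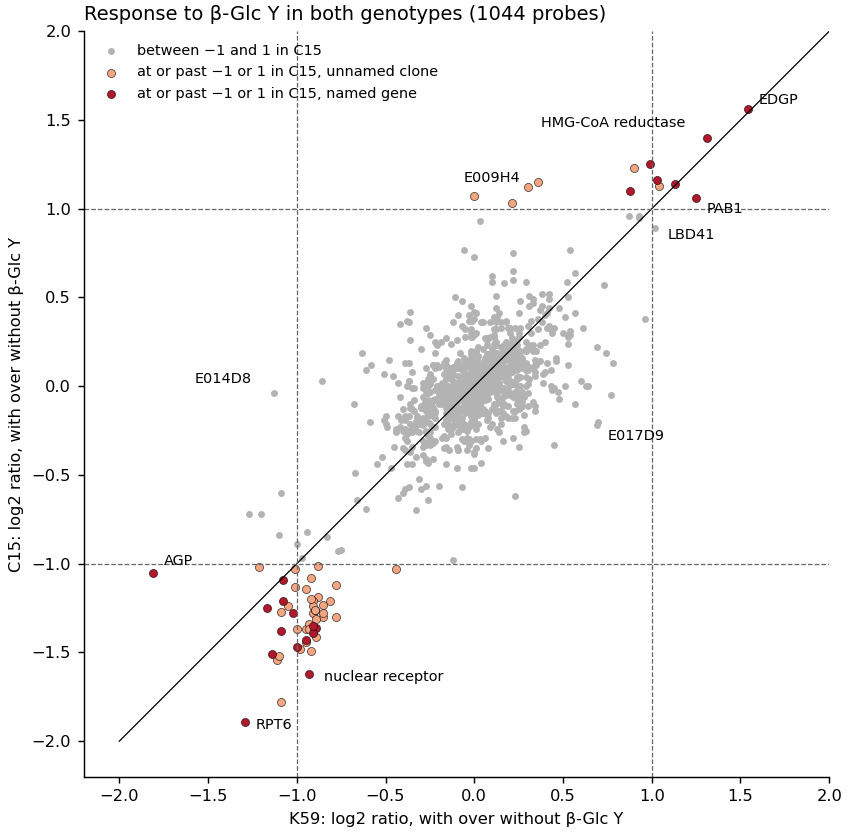
Log2 ratio of explants with over without β-Glc Y in C15 against K59 for 1044 probes with both values, with the line of equal values, dashed lines at -1 and 1, and probes at or beyond -1 or 1 in C15 in colour (red where named). The lower probes lie mostly under the line of equal values, the AGP gene lies far above it at -1.81 in K59 and -1.05 in C15, and 4 unnamed higher clones, E009H4 among them, lie between 0.00 and 0.36 in K59.

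Few of the probes beyond the limits in C15 alone lay far from their K59 value. Of the 37, only 10 also differed from K59 by at least 0.5, 6 lower and 4 higher. The only named one among them was the nuclear receptor gene with a difference of -0.69, and the unnamed clone E016C1 was the only lower probe above -0.75 in K59, at -1.03 in C15 and -0.44 in K59. The 4 higher clones were all unnamed, E009H4 at 1.07 beside 0.00, N101A11 at 1.15 beside 0.36, E014B5 at 1.12 beside 0.30 and E004A6 at 1.03 beside 0.21. RPT6 differed by -0.60 but was beyond the limit in both genotypes. The C15 minus K59 difference over all 1044 probes had an SD across probes of 0.25 and was within 0.52 of zero for 95% of them, and 3 of the 6 lower probes, E017C2, E017B2 and E014D1, did not exceed that. With plate medians subtracted, E016C1, E009H4 and E004A6 came inside the limits.

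The largest differences between the genotypes lay mostly in probes within the limits in C15. Toward a lower value in C15 these were the unnamed clones E017D9 (-0.22 in C15, 0.69 in K59), E010B10 (-0.20, 0.70), N102B10 (-0.98, -0.12), E002E4 (-0.62, 0.23) and A025G1 (-0.05, 0.77). Toward a higher value they were E014D8 (-0.04, -1.13), E009H4, N103A8 (0.93, 0.03), N101G5 (0.03, -0.86) and E017F12 (0.77, -0.06). None of these 10 clones has a name in the study's annotation, and each rests on 1 deposited value per genotype.

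The lowest unnamed probes were N104F5 at -1.78, E002C11 at -1.54 and E016E11 at -1.52, a 3.43-fold to 2.87-fold lower signal, with -1.09, -1.11 and -1.10 in K59. All 48 lower probes together had quartiles of -1.40 and -1.21 in C15 and of -1.06 and -0.90 in K59. Whether several of these clones carry the same sequence could not be read from the values and was not tested.

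In K59, whose explants share no RNA with the C15 reagent comparison, the lower probes of C15 lay on both sides of zero upon induction of embryogenesis without reagent. Of 46 with a value for day 4 against day 0 in K59, 12 were at or above 1 and 12 at or below -1, and over all 867 probes of that comparison 17.3% and 23.4% were. Among the higher probes of C15, 7 had such a value, none at or above 1 and 2 at or below -1.

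For the 14 named lower genes the induction values stood beside the reagent values as follows, with the Y- explants of C15 at day 4 entering both C15 ratios. In K59 13 of them had an induction value, 8 at or above 1, 3 at or below -1 and 2 between. The AGP gene was at 1.55 in K59 and -1.43 in C15 after 4 days of induction. Remorin was at 1.11 in K59 and 0.25 in C15, RPT6 at 1.23 and 0.33, amino acid permease 6 at 1.12 and 0.24, the nuclear receptor gene at 1.32 and 0.53, ATP citrate lyase at 1.90 and 0.65, the mucin-like gene at 1.44 and 0.40 and the RNA helicase at 1.37 and 0.31. These 7 genes and the AGP gene are the 8 beyond 1 in K59 upon induction, and the 7 were within the limits in C15. The study listed 12 of the 14 genes as expressed specifically in K59 or C15. That listing rests on these same induction comparisons, so the pattern largely follows from the choice. Over all lower probes with an induction value in K59, 12 of 46 were at or above 1, beside 17.3% of all 867 probes.

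The other named lower genes had K59 induction values below 1. The extensin-related gene was at -3.70 in K59 and -2.75 in C15 after induction, HyPRP at -1.26 and -0.15, and SDI-9 at -1.45 and 0.75. DEA1 was at -0.28 and 0.08 and GAPDH at 0.45 and 0.18. Snakin 2, at 1.93 in C15, had no K59 value for induction. Of the genes higher with the reagent, HMG-CoA reductase was at -2.05 in K59 and -0.52 in C15 after induction, AGD6 at -0.39 and -0.32, the peroxidase at 0.19 and 0.06 and PAB1 at 0.84 and 0.27.

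The lower probes were unevenly spread over the 22 plates of 96 clones from which the array was printed. On the plates E002, E016, E017 and N104 lay 29 of the 48, or 9.67% of their 300 probes, and on the other 18 plates 19, or 1.98% of 960. These 4 plates were set apart because each held 5 or more lower probes, so the shares only describe the spread, and N103 among the others held 3 in 35, or 8.57%. The plate medians ran from -0.17 on E017 to 0.10 on E001 and E008, and those 4 plates had medians of -0.09, -0.08, -0.17 and -0.14. On the same 4 plates 10 of the 292 probes with a K59 value were at or below -1 in K59, beside 24 of 1201 over all plates. With each plate's median subtracted, 46 probes were at or below -1 and 12 at or above 1, and the part of plate or print position in the lower group was not tested.

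**Figure D5:**
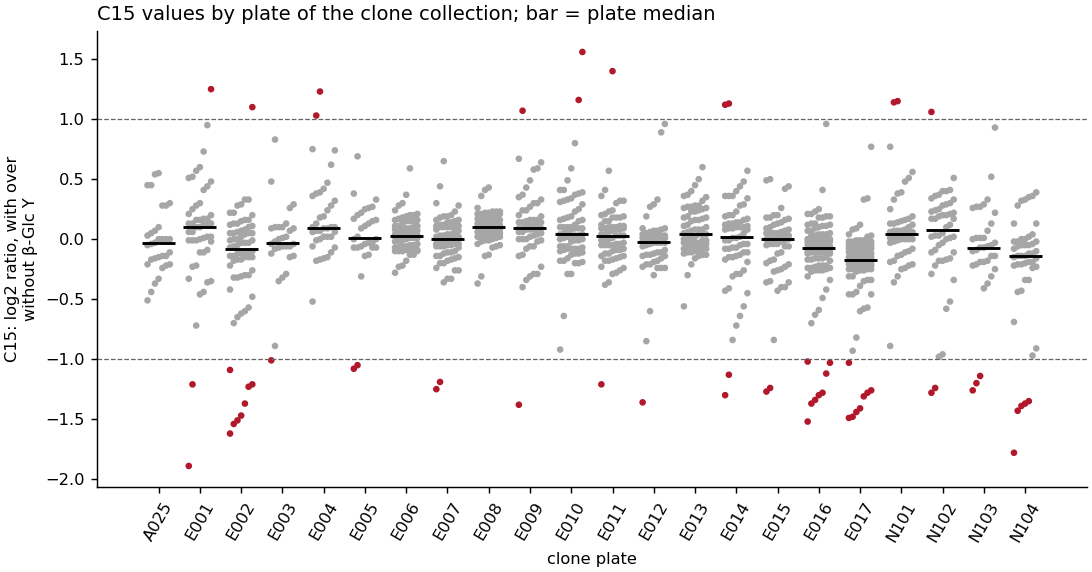
Log2 ratio of explants with over without β-Glc Y in C15 for all 1260 probes by the plate of the clone collection, with probes at or beyond -1 or 1 in red, a bar at each plate median and dashed lines at -1 and 1. The lower probes are most frequent on E002, E016, E017 and N104, whose medians lie slightly below zero, and 7 plates hold none.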

How the data were processed

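RNA of leaf explants was labelled with Cy5 and Cy3 and hybridized to cDNA arrays of chicory clones. The deposited values are log2 ratios. The authors took the median intensity of each spot less its background, dropped saturated, weak or artefactual spots, normalized every slide by a global lowess and then by the median of each print tip, and dropped probes that disagreed between dye swaps. How the 6 hybridizations were combined is not given in the sources used here, and 852 clones had no C15 value. The tests of the study work on single hybridizations and were not run here.

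The values were used as deposited, with no further normalization, in Python 3.11.15 with pandas 2.3.3 and numpy 2.4.6. Counts and medians were computed at a limit of 1 on the absolute log2 ratio. The counting code was tested on simulated data. Alternatives were limits of 0.75 and 1.5, subtraction of the comparison or plate median, probes with complete values, and a least difference of 0.5 between genotypes.

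Genes were named where they were beyond the limit and annotated, extreme, next to the limit, highest or lowest in a group, most different between genotypes, described by the study as affected, or alike in name. The members, groups and rules were chosen with earlier results of these data known.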

Additional observations from a re-analysis of the deposited data

Results flagged for a closer look

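Among the probes singled out here, 12 had opposite signs in C15 and K59 and differed by at least 0.52 on the log2 scale, the value that 95% of all differences stay within. Over all 1044 probes with both values, 270 had opposite signs and 28 of them also differed by that much. With 1 deposited value per genotype the differences were not tested. Lower in C15 than in K59 were the unnamed clones E017D9 by -0.91, E010B10 by -0.90, E002E4 by -0.85 and A025G1 by -0.82, the dihydroflavonol reductase gene E001H2 by -0.78 (-0.33 in C15 and 0.45 in K59) and the malate dehydrogenase clone N101C1 by -0.54. Higher in C15 were the unnamed clones N101G5 by 0.89 and E017F12 by 0.83, the heat shock cognate 70 gene E016H11 by 0.82 (0.19 in C15 and -0.63 in K59), the CP12 gene E003D4 by 0.55, the RING zinc finger gene E012B12 by 0.54 and the elongation factor 1 α gene E001D9 by 0.52. None of these 12 was beyond the limits in C15. Clones with the same Arabidopsis match did not show differences of that size. The HSP70 clone E012D5, matched like E016H11, was at -0.05 in C15 and 0.18 in K59, a difference of -0.23 in the opposite direction. The clones E006E2 and E006G1, matched like N101C1, each differed by -0.09.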

How the results depend on the processing

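The counts depended mainly on the limit. At 0.75, 23 probes were higher in C15 and the count beyond the limit in C15 alone was 10, with 2 lower. At 1.5, 7 probes remained beyond the limit in C15, 1 higher and 6 lower, and 6, all lower, were beyond it in C15 alone, with 0 higher. Asking also for a difference of 0.5 between the genotypes left 10 probes in C15 alone, 4 higher and 6 lower. With all 5 values required, 4 higher probes were counted. In alternatives chosen after seeing the data, 21 probes were beyond the limit among named genes, 7 higher and 14 lower, and 31 without plates E002, E016, E017 and N104, of which 19 were lower. Subtracting plate medians moved no value by more than 0.17. It took 7 probes inside the limits, PAB1, E003F5, E004A6, E009H4, E016C1, E016D3 and E017G1, and brought 3, E016A6, N102B10 and N103A8, beyond them. Subtracting the comparison median, which was 0, changed no count, and the median differences between the genotypes moved by less than the spread of the differences in each alternative run for them. No paired analysis was possible because each comparison has 1 deposited value per probe, and no replicate could be left out for the same reason. Signal over background is not in the values, so the precision of a single gene is unknown, and a value near the limit has no firm side.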

Other observations

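The value 0.00 was more frequent in C15 than its neighbours, with 45 probes at 0.00, 27 at -0.01 and 24 at 0.01, and in K59 with 38, 19 and 21. In C15 216 probes had a value and no K59 value for the reagent, none of them beyond the limits, and 157 probes had a K59 value only.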
